A study of Mus musculus with 5 samples.

Results

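Bone morphogenetic protein (BMP) signalling was followed in uteri of Dicer cKO mice through 10 genes: the ligand genes Bmp2, Bmp4 and Bmp7, the receptor genes Bmpr1a and Bmpr2, the secreted antagonist gene Nog, the Id genes Id1, Id2 and Id3, and the inhibitory Smad gene Smad6. All probes listed under one of these names, which the array writes in capitals (BMP2, BMP4, BMP7, BMPR1A, BMPR2, NOG, ID2, SMAD6), were taken. That gave 14 probes for 8 of the 10 genes, because the array lists Id1 and Id3 only under the older names Idb1 and Idb3. Matching older names through RefSeq added 4 probes (Idb1, Idb2, Idb3 and 2610024H22Rik, a former name of Bmpr2), so 18 of the 45281 probes on the array were described.

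The samples were pools of uteri from C57BL/6J;129S5/Brd mixed hybrid mice aged 15 days, each pool read as biotin-labelled total RNA on 1 Illumina bead array. The Dicer cKO group had 2 pools, 10 and 12, in which progesterone receptor-Cre (PR-Cre) had removed Dicer, the enzyme that cuts microRNA precursors. The control group had 3 pools, 7, 9 and 11, labelled wild type. Recombination is limited to cells that express the progesterone receptor, and the sources used here do not say how many uteri made up a pool. The p-values concern these 5 pools only. They rest on the spread among the pools and on that of other probes, since limma draws each probe's variance toward that of probes of like signal. The sources do not say either whether the control mice had Cre or a floxed allele.

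BMP ligands are secreted dimers that bring type I receptors such as Bmpr1a and the type II receptor Bmpr2 together. The active type I receptor phosphorylates Smad1, Smad5 and Smad9, which join Smad4 and switch on a small set of genes in most cell types. The Id genes are the textbook members of that set: they encode helix-loop-helix proteins without a DNA-binding part, which hold E proteins in inactive pairs. Smad6 is induced by the same signal and blocks it, and noggin, the product of Nog, binds ligands outside the cell. In the mouse uterus, BMP signalling is known for its part in implantation and in the change of stromal cells into decidual cells in pregnancy. The question followed here is whether the Id genes moved with the ligands when Dicer was lost.

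The upstream DNA of the called ligand gene and of the target genes is shown as background, since the Id genes and Smad6 are read as outputs of Smads. Smad binding was not measured, and DNA beyond the 250 bases described was not searched. Upstream sequence by RefSeq start (GRCm38.p6) was at hand for 6 of the 10 genes, and not for Bmp2, Bmp7, Nog and Id1. The 250 bases before the start are printed 5′ to 3′ on the strand of the gene, with capitals marking GGCGCC, the core of GC-rich BMP-response elements, and CAGAC, the Smad box, each searched on both strands.
Bmp4, chr14:46390670-46390919, minus strand: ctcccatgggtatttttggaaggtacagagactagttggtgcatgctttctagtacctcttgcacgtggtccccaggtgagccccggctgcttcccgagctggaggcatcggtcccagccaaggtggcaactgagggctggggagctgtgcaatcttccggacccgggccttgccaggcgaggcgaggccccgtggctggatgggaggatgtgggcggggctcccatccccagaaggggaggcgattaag
Id2, chr12:25096093-25096342, minus strand: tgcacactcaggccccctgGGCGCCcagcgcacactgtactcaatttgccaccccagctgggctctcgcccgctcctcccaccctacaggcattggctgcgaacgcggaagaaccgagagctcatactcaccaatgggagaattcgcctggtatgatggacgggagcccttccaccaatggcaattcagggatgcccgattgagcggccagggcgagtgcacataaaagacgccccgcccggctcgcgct
Id3, chr4:136143572-136143821, plus strand: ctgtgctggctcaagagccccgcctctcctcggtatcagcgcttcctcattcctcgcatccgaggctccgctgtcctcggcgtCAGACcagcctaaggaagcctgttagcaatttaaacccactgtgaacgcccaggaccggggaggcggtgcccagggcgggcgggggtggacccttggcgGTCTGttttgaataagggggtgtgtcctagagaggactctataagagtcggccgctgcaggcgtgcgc
Smad6, chr9:64022060-64022309, minus strand: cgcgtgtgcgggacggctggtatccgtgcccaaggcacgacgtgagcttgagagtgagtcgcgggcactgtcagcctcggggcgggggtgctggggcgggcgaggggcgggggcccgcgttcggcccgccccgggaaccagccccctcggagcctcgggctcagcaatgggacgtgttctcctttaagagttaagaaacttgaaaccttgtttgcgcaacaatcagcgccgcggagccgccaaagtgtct

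The Id2 window holds 1 GGCGCC and no CAGAC, the Id3 window 2 CAGAC boxes and no GGCGCC, and the Bmp4 and Smad6 windows hold neither. GGCGCC is present in 9.59% and CAGAC in 42.2% of 32841 such windows in the RefSeq table, so matches of this kind are common. The windows of Bmpr1a and Bmpr2, not printed, each hold 1 GGCGCC and no CAGAC. These windows are rich in G and C, with 62.8% in Id2 and in Id3, 63.2% in Bmp4 and 66.8% in Smad6, against a median of 52.4% over all windows.

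Across the 10 genes only Bmp4, which was lower in Dicer cKO uteri, had a probe that passed the test. A probe that did not pass may still have changed, within the interval of its difference. Of the 18 probes, 15 from 9 genes were detected on at least 2 of the 5 arrays and were tested with limma. A probe was called where its Benjamini-Hochberg adjusted p over all 22845 probes tested was under 0.05, and 1 of the 15 was called, against 5.87% of all probes tested (3.52% lower in Dicer cKO). The count of 1 in 15 is therefore near the share over the whole array. The tested probes were evenly split in direction, with 8 lower and 7 higher in Dicer cKO means, and 47.1% of all probes tested were lower. Pools of the Dicer cKO and control groups did not overlap for 2 of the 15 probes, against 36.7% of all probes tested, and 1 of the 15 had an unadjusted p under 0.05, against 19.6%.

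**Figure D1:**
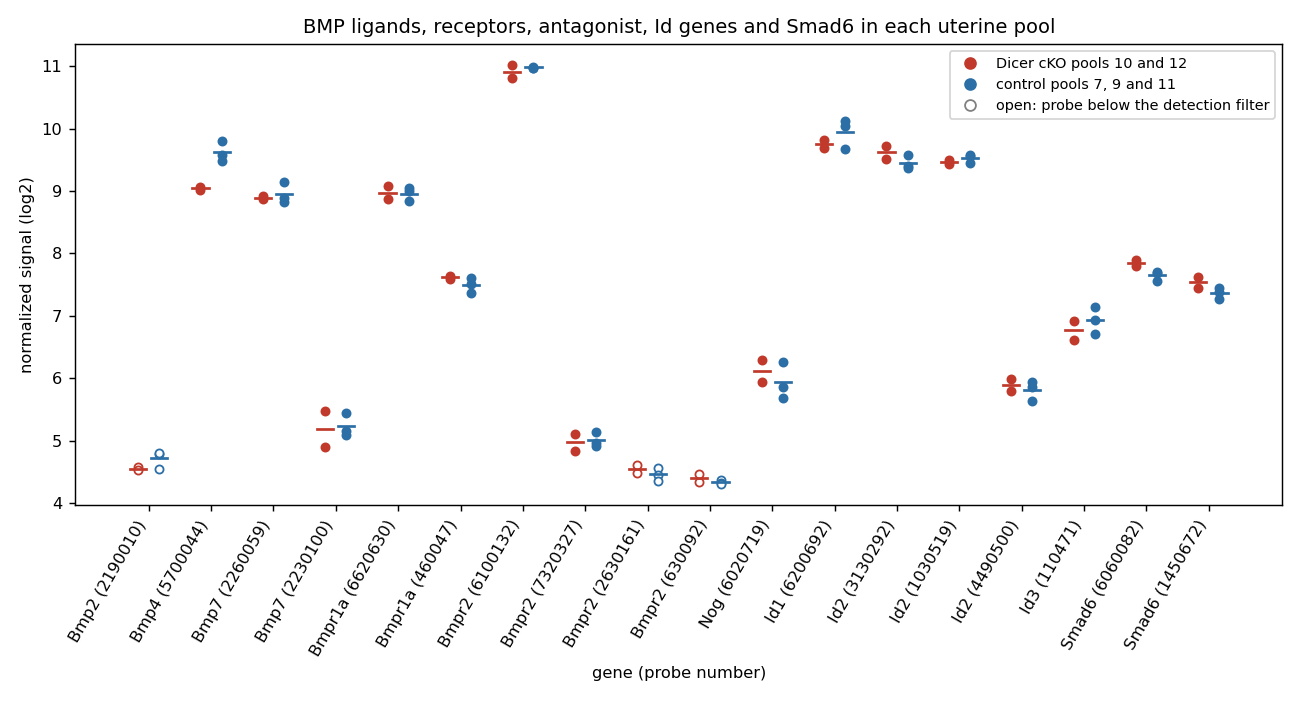
Normalized log2 signal of each of the 18 probes in every pool, with Dicer cKO pools 10 and 12 in red to the left of control pools 7, 9 and 11 in blue, short bars at the group means and open circles for probes below the detection filter. The red and blue points separate for Bmp4 and narrowly for the first Smad6 probe.

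Bmp4, a ligand made by the mesenchyme of many developing organs, had deposited intensities of 531.7 and 557.7 in Dicer cKO pools 10 and 12, against 1024.1, 753.1 and 737.3 in control pools 7, 9 and 11. The bead-to-bead standard error of these readings was between 2.48% and 3.51% of the intensity, an error that covers the beads of 1 array and not the spread between pools. After background correction and normalization the signal was 9.07 and 9.02 log2 units in Dicer cKO pools 10 and 12, and 9.80, 9.48 and 9.58 in control pools 7, 9 and 11. Both Dicer cKO pools lay below every control pool, as they did for 17.1% of all probes tested, with pool 7 the highest of the controls. Bmp4 fell by 0.58 ± 0.11 on the log2 scale (SE; 95% interval -0.81 to -0.34; limma adjusted p = 0.0102), a level 0.670 times that of the controls with an interval of 0.568 to 0.789. The array carried 1 Bmp4 probe, so no other probe could be set beside it. Without Dicer cKO pool 10 or pool 12 the difference was -0.61 and -0.55 and the call was lost (limma adjusted p = 0.0818 and 0.0563), a setting in which the lone remaining Dicer cKO pool is assumed to vary like the controls.

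Bmp7, a ligand gene active in many epithelia, did not pass. Its brighter probe read 8.86 and 8.92 log2 units in Dicer cKO pools 10 and 12, against 8.82, 9.14 and 8.89 in control pools 7, 9 and 11. The groups overlapped, and the difference was -0.06 ± 0.11 (95% interval -0.31 to 0.19; limma adjusted p = 0.833). Its dimmer probe, at -0.05 ± 0.19, was detected on 1 of 2 Dicer cKO arrays and 3 of 3 control arrays. Bmp2, the ligand gene best known from the uterine response to the embryo, was not detected on any array, with intensities of 49.7 and 49.2 in the Dicer cKO pools and 59.8, 58.5 and 48.2 in control pools 7, 9 and 11. Its probe was not tested and no fold is given.

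The receptor genes did not pass either. Bmpr1a, encoding a type I receptor, read 8.87 and 9.08 log2 units in Dicer cKO pools 10 and 12 and 8.83, 9.00 and 9.04 in control pools 7, 9 and 11, a difference of 0.01 ± 0.11 (95% interval -0.23 to 0.25; limma adjusted p = 0.965). Its second probe differed by 0.12 ± 0.12, with an interval of -0.14 to 0.38. Neither interval reaches a change as large as that of Bmp4.

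Bmpr2, encoding the type II receptor, was read by 4 probes. The brightest of them, listed as 2610024H22Rik, stood at 10.80 and 11.02 in Dicer cKO pools 10 and 12, on both sides of 10.99, 10.97 and 10.97 in control pools 7, 9 and 11, and differed by -0.07 ± 0.08 (95% interval -0.25 to 0.12; limma adjusted p = 0.730). Of the 3 probes listed as Bmpr2, 1 was detected on 3 of 5 arrays and differed by -0.04 ± 0.15, and the other two were detected on none. A search by the current name alone would thus have found dim probes of this gene only.

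Nog, encoding the antagonist noggin, had intensities of 86.9 and 111.2 in the Dicer cKO pools and 95.2, 84.3 and 100.8 in control pools 7, 9 and 11. On the log2 scale these were 5.95 and 6.29 in Dicer cKO pools, against 5.86, 5.68 and 6.27 in control pools. The values interleaved, and the difference of 0.18 ± 0.19 had the widest interval among the genes tested with a single probe, -0.23 to 0.60 (limma adjusted p = 0.656).

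**Figure D2:**
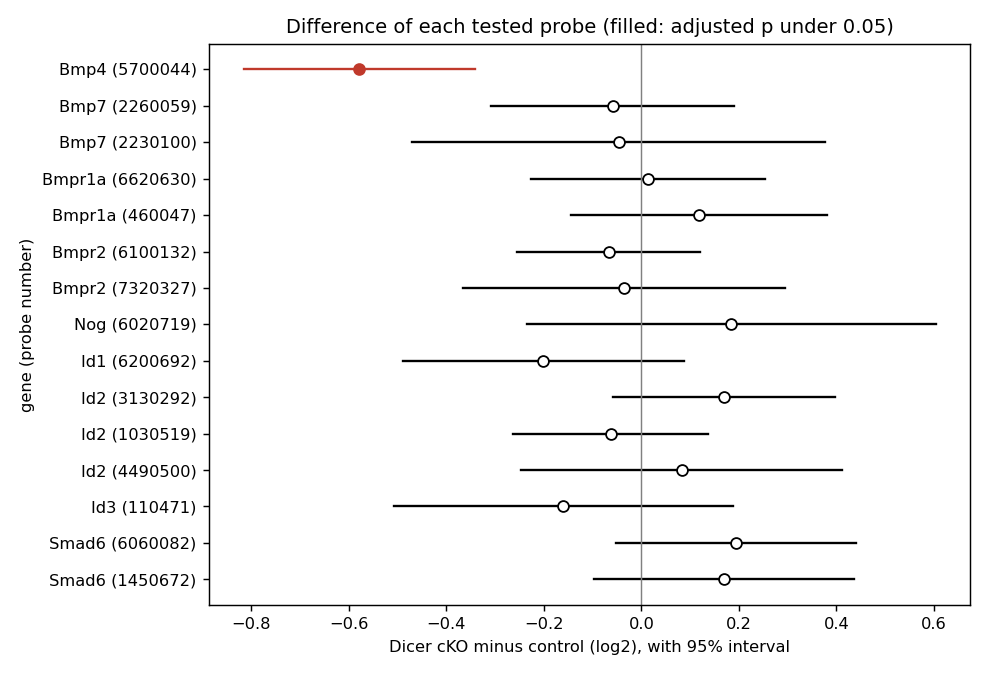
Difference between Dicer cKO and control pools for the 15 tested probes on the log2 scale, with the 95% interval of the limma fit as a horizontal line and a filled red point for an adjusted p under 0.05. The interval of Bmp4, from -0.81 to -0.34, lies wholly below 0, and every other interval spans 0.

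With all 5 pools, none of the 5 Id probes was called by limma, none reached an unadjusted p under 0.05, and for none did the Dicer cKO and control pools separate. Over all probes tested these shares were 5.87%, 19.6% and 36.7%, so counts of none among 5 probes say little. Id1, the Id gene most often used as a readout of BMP signalling, read 9.81 and 9.68 log2 units in Dicer cKO pools 10 and 12, and 9.67, 10.13 and 10.05 in control pools 7, 9 and 11. Both Dicer cKO pools lay below control pools 9 and 11 but above control pool 7. The difference was -0.20 ± 0.13 (95% interval -0.49 to 0.09; limma adjusted p = 0.448), which corresponds to a level between 0.713 and 1.06 times that of the controls. Without control pool 7, its lowest control, Id1 differed by -0.34 with an unadjusted limma p of 0.0064 (limma adjusted p = 0.114), and with each other pool left out it differed by -0.26 to -0.11.

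Id3, which encodes a second inhibitor of E proteins, read 6.92 and 6.62 log2 units in Dicer cKO pools 10 and 12, against 6.72, 7.14 and 6.93 in control pools 7, 9 and 11. It differed by -0.16 ± 0.16 (95% interval -0.51 to 0.19; limma adjusted p = 0.639), and with each pool left out in turn the difference ran from -0.31 without Dicer cKO pool 10 to -0.0092 without Dicer cKO pool 12. Id1 and Id3 shared the same highest pool, control 9, and the same lowest pair of pools, Dicer cKO 12 and control 7. Control pool 7, where Id1 was lowest, was the pool where Bmp4 was highest.

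Id2, an Id gene that is also under other controls than BMP, had 3 probes, and they did not point one way. The brightest on average, listed as Idb2, read 9.52 and 9.72 in Dicer cKO pools 10 and 12, against 9.41, 9.57 and 9.37 in control pools 7, 9 and 11, a difference of 0.17 ± 0.10 (95% interval -0.06 to 0.40; limma adjusted p = 0.411). Without Dicer cKO pool 10 it was 0.27 with an unadjusted limma p of 0.0475 (limma adjusted p = 0.407). The next, listed as Id2, read 9.43 and 9.50 in Dicer cKO pools, against 9.56, 9.44 and 9.58 in control pools, a difference of -0.06 ± 0.09 (95% interval -0.26 to 0.14; limma adjusted p = 0.770). The dimmest differed by 0.08 ± 0.15. The sign for Id2 thus depends on the probe, and each interval spans 0.

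Smad6, the inhibitory Smad, was the other gene with a probe whose pools did not overlap, and there the Dicer cKO pools were the higher ones. Pools did not overlap, in either direction, for 36.7% of all probes tested, so this is common on the array. Its brighter probe read 7.79 and 7.90 log2 units in Dicer cKO pools 10 and 12, against 7.70, 7.68 and 7.56 in control pools 7, 9 and 11. The difference was 0.19 ± 0.11 (95% interval -0.05 to 0.44; limma adjusted p = 0.378), not called. The second probe differed by 0.17 ± 0.12 with overlapping pools.

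Set beside Bmp4, the Id genes and Smad6, each by its brightest probe, were spread on both sides of 0 in the Dicer cKO pools. In Dicer cKO pools 10 and 12, Bmp4 was 0.55 and 0.61 log2 units below the control mean, while Id1 was 0.14 and 0.27 below it, Id3 0.01 and 0.31 below it, Id2 0.07 and 0.27 above it and Smad6 0.14 and 0.25 above it. The change of each gene minus the change of Bmp4, computed pool by pool with the brightest probes, was 0.38 for Id1, 0.75 for Id2, 0.42 for Id3 and 0.77 for Smad6. With each pool left out in turn these differences ran from 0.15 to 0.53 for Id1, 0.61 to 0.88 for Id2, 0.23 to 0.59 for Id3 and 0.69 to 0.86 for Smad6, and those of Id1 and Id3 were smallest without control pool 7. The 4 comparisons were added after the values had been seen and are given with no test. Bmp4 had the lowest difference of the 15 tested probes. Any other of these probes minus Bmp4 is therefore above 0, and that sign carries no information. Id2 is taken here by the probe listed as Idb2. The next probe, listed as Id2 and nearly as bright, had means of 9.47 in Dicer cKO and 9.53 in control pools. Its difference was -0.06, so the side of 0 on which Id2 lay depends on the probe. With that probe the Id2 change minus the Bmp4 change would be smaller than 0.75. Decreases in Id1 of up to 0.49 and in Id3 of up to 0.51 log2 units lie within the intervals above.

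**Figure D3:**
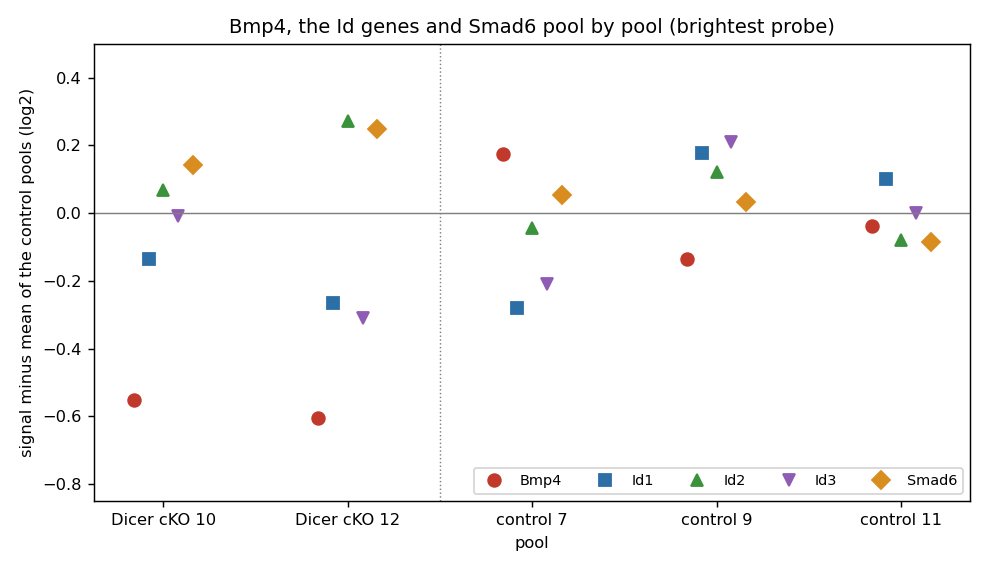
Signal of Bmp4, Id1, Id2, Id3 and Smad6 in each pool minus the mean of the 3 control pools, on the log2 scale, with the Dicer cKO pools to the left of the dotted line. Each gene is shown by its brightest probe. Bmp4 is far below 0 in both Dicer cKO pools, and Id2 and Smad6 are above 0 there. A further Id2 probe, not shown, differed by -0.06 between the groups. Id1 and Id3 vary about as much among the control pools as between the groups.

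The rest of the pathway held calls in both directions. Of 72 further pathway genes in 6 lists, 50 were detected and tested by their brightest probe, 3 rose, 3 fell and 44 did not pass, so 12% were called. The share called over all 15733 genes tested was 6.57% (2.68% higher and 3.88% lower), and the median difference was -0.01 for these 50 genes and 0.01 for all genes. Pools did not overlap for 23 of the 50 (46%), against 37.6% of all genes, and 16 of the 50 (32%) had an unadjusted p under 0.05, against 20.7%. Whether these shares differ from those of all genes was not tested.

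Among 5 further BMP and GDF ligand genes detected, Gdf5, known for its part in joint formation, rose and 4 did not pass. Gdf5 read 6.98 and 6.99 log2 units in Dicer cKO pools 10 and 12 and 6.16, 6.14 and 6.25 in control pools 7, 9 and 11. All Dicer cKO values of this probe lay above all control values, with a difference of 0.80 ± 0.12 (limma adjusted p = 0.0040). Its dimmer probe, at 0.92 ± 0.15, was detected on 2 of 2 Dicer cKO arrays and 1 of 3 control arrays. That probe thus passed the detection filter through the group where it is high, and it lends no support of its own. The other 4 were Bmp3, Bmp5, Gdf7 and Gdf10, while the 7 genes Bmp6, Bmp8a, Bmp8b, Bmp10, Bmp15, Gdf2 and Gdf6 were below the detection filter. The median of the 5 was 0.11. Without Dicer cKO pool 10 the call of Gdf5 was lost (limma adjusted p = 0.0527).

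Receptors and co-receptors held the most calls, with 1 gene higher, 2 lower and 7 not called of 10 tested, and a median of 0.04. Acvr2b, a type II receptor that binds activins and also BMPs, read 10.52 and 10.29 in Dicer cKO pools 10 and 12, against 9.76, 9.66 and 9.56 in control pools 7, 9 and 11. It rose by 0.74 ± 0.10 (limma adjusted p = 0.0017), a level 1.67 times that of the controls. Amhr2, the type II receptor of anti-Müllerian hormone, which signals through the BMP Smads, read 7.55 and 7.80 in Dicer cKO pools, against 8.61, 8.50 and 8.42 in control pools, and fell by 0.83 ± 0.12 (limma adjusted p = 0.0022). Its other two tested probes differed by -0.59 and -0.47, the first of them called.

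Rgmb, encoding a membrane co-receptor that binds BMPs, read 6.51 and 6.93 in Dicer cKO pools 10 and 12, against 7.56, 7.47 and 7.50 in control pools 7, 9 and 11. It fell by 0.79 ± 0.14 (limma adjusted p = 0.0093), and its dimmer probe by 0.73 ± 0.16. Dicer cKO pool 12 lay nearer the controls than pool 10, and without pool 10 the difference was -0.58 and not called (limma adjusted p = 0.104). The type I receptor gene Bmpr1b, named here after its values were seen, stood at 6.39 and 6.53 in Dicer cKO pools and 5.72, 5.83 and 6.12 in control pools, a difference of 0.57 ± 0.15 that missed the threshold (limma adjusted p = 0.0589).

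Of 12 extracellular modulators tested, 1 fell and 11 did not pass, with a median of -0.12, and 9 of the 21 listed were below the detection filter. Fstl3, a secreted binder of activins and related ligands, read 6.23 and 6.21 in Dicer cKO pools 10 and 12, against 6.99, 6.82 and 6.81 in control pools 7, 9 and 11, and fell by 0.66 ± 0.13 (limma adjusted p = 0.0134). Its call was lost without either Dicer cKO pool or without control pool 7, with limma adjusted p of 0.104 without pool 10, 0.0562 without pool 12 and 0.0548 without control pool 7. Of the 9 Smads and intracellular regulators tested, limma called 0, and 1 had an unadjusted p under 0.05, against 6.57% and 20.7% of all genes tested. By moderated t the foremost were Skil, a repressor of Smad signalling, at 0.26 ± 0.10 (limma adjusted p = 0.177) and Tob1, which binds Smads, at -0.24 ± 0.13 (limma adjusted p = 0.353). Smad1, Smad5 and Smad4, which carry the signal, differed by -0.12 ± 0.09, -0.11 ± 0.10 and 0.05 ± 0.07, and Smad7, Smad9 and Bambi were below the detection filter.

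**Figure D4:**
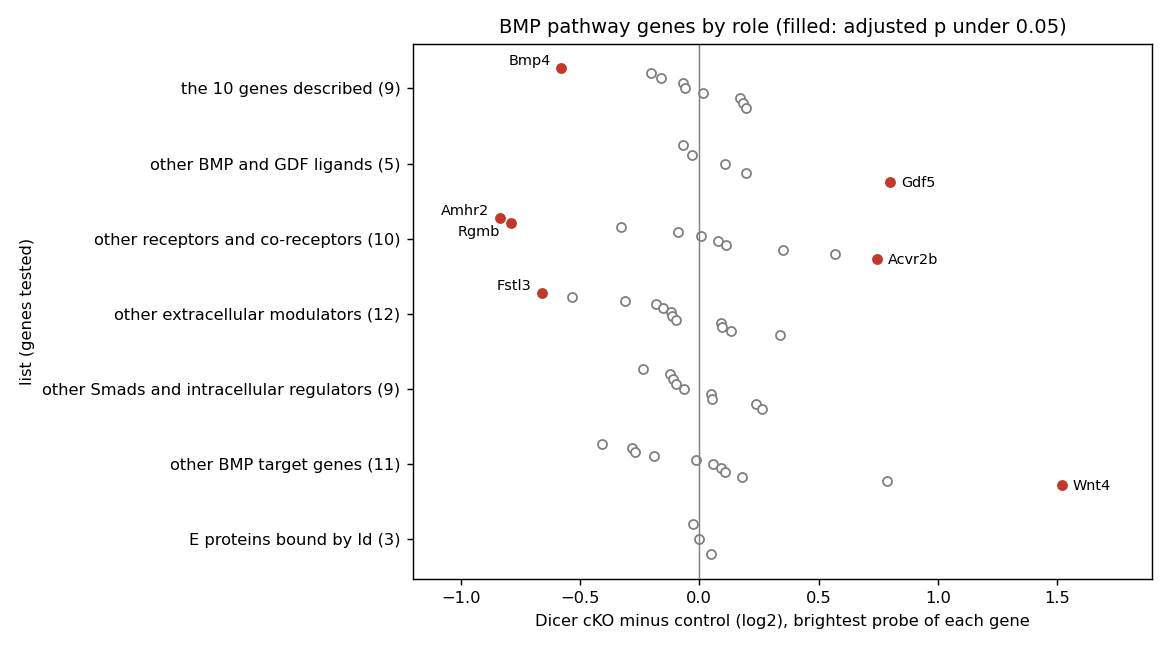
Difference between Dicer cKO and control pools on the log2 scale for the brightest tested probe of each BMP pathway gene, grouped by role, with filled red points for an adjusted p under 0.05. Gdf5, Acvr2b and Wnt4 lie to the right and Bmp4, Amhr2, Rgmb and Fstl3 to the left, while the other genes are not called.

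Of 11 other genes known as BMP targets in some tissues, 1 rose and 10 did not pass, with a median of 0.06. The gene that rose was Wnt4, a Wnt ligand induced by Bmp2 in the mouse stroma, which read 8.94 and 8.32 in Dicer cKO pools 10 and 12, against 7.05, 6.92 and 7.36 in control pools 7, 9 and 11. It rose by 1.52 ± 0.19 (limma adjusted p = 0.0010), with 1.28 ± 0.20 from its dimmer probe. The homeobox genes Msx1 and Msx2, named after their values were seen, differed in opposite directions. Msx1 differed by -0.41 ± 0.12 (limma adjusted p = 0.0796) and Msx2 by 0.79 ± 0.25 (limma adjusted p = 0.105), neither called. In both the pools did not overlap, as for 37.6% of all genes tested. Id4, the remaining Id gene, listed as Idb4, differed by 0.18 ± 0.11 (limma adjusted p = 0.443). The E protein genes Tcf3, Tcf4 and Tcf12, whose products the Id proteins hold, were not called by their brightest probes. Their differences ran from -0.03 to 0.05 (0 of 3 in limma, also 0 at an unadjusted p under 0.05, against 6.57% and 20.7% of all genes tested). Dimmer probes of Tcf12 differed by -0.35 ± 0.22 and -0.03 ± 0.18 and were not called either.

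Bmp4 had its nearest profiles in Sh3rf2, in Tent5b, listed as 4732473B16Rik, and in a probe listed as ATP6A1, by the root mean square difference over the 5 pools after centring each profile on its own mean. These distances were 0.019, 0.031 and 0.032 log2 units, against an SD of 0.34 for Bmp4 across the pools. They were picked as the smallest among the 15733 genes tested, over 5 pools only, which by itself favours small values.

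As to the arrays as a whole, between 47.0% and 49.5% of probes were detected on each, and no pair of arrays shared more than 0.601% identical intensities. The brighter Dicer1 probe differed by -0.43 ± 0.09 (limma adjusted p = 0.0233) and the dimmer one by -0.22 ± 0.13 (limma adjusted p = 0.392), and Pgr fell by 0.77 ± 0.14 (limma adjusted p = 0.0079). With Dicer cKO pool 10 left out neither was called, at limma adjusted p of 0.195 for the brighter Dicer1 probe and 0.117 for Pgr, and this Dicer1 probe also missed the threshold with control pool 7, 9 or 11 left out (0.0764, 0.0733 and 0.0576). The sources used here do not say where the Dicer1 probes lie relative to the deletion. The part of PR-Cre itself in the Pgr difference was not tested, since the Cre status of the control mice is not given. Of 8 genes that mark uterine tissue 7 were detected, Emx2 being the exception. Limma called 1 of the 7 higher and 2 lower, where 2.68% and 3.88% of all genes were. The higher one was Wnt7a, at 0.89 ± 0.23 (limma adjusted p = 0.0482), and the lower ones were Pgr and Amhr2. Of 12 stromal markers tested, limma called 4 lower, 0 higher and 8 not, where 3.88% of all genes were called lower, and the log2 of their summed signal was 15.25 and 15.42 in Dicer cKO pools, against 15.52 to 15.58 in control pools. Epithelial markers, of which Epcam was below the detection filter, went both ways, with 3 of 14 higher and 7 lower and summed levels of 13.36 and 13.33 in Dicer cKO pools, against 13.61 to 13.94 in control pools. Adipocyte markers had 3 of 5 lower, at 9.58 and 10.66 in Dicer cKO pools, against 11.01 to 11.88 in control pools. Endothelial markers, from cells in which Id1, Id3 and Smad6 are well known BMP targets, had 1 of 12 lower and overlapping sums of 14.06 and 14.15 in Dicer cKO pools and 14.07 to 14.16 in control pools. Macrophage markers had 3 of 10 higher and 1 lower, and 1 of 3 ovary and oviduct markers was lower. Limma called 0 of 23 markers of smooth muscle, lymphocytes, red blood cells, mesothelium and nerve, also 0 at an unadjusted p under 0.05. The shares over all genes were 6.57% and 20.7%. Only 1 nerve marker and 3 red blood cell markers were tested, so these counts do not show that the cell types were unchanged. The part of these cell types in the Bmp4 difference was not tested, and in whole uteri fewer cells of a type and less RNA per cell cannot be told apart.

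**Figure D5:**
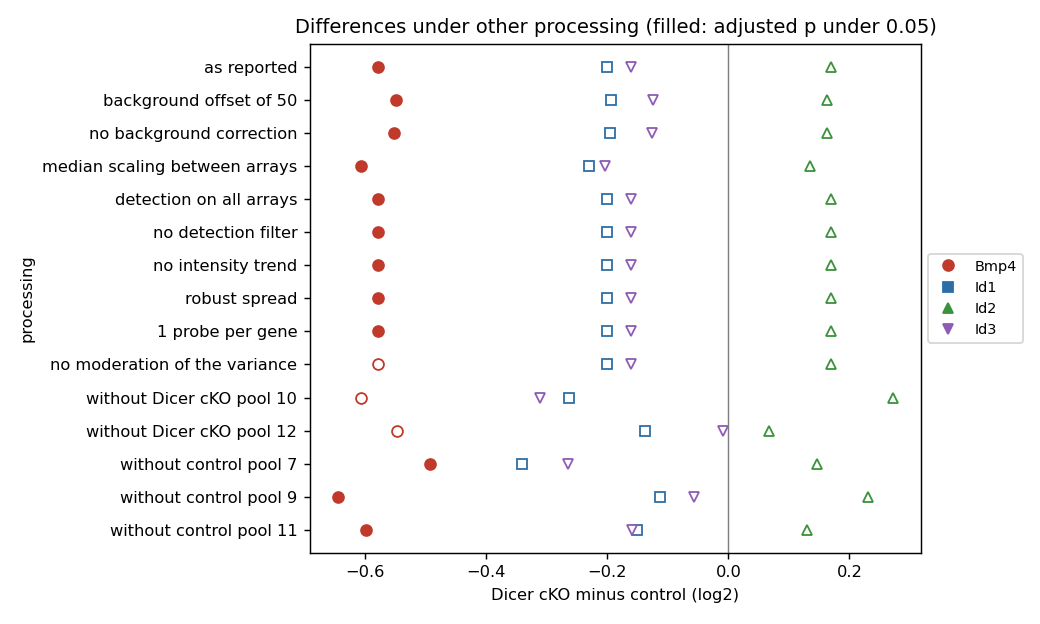
Difference between Dicer cKO and control pools on the log2 scale for Bmp4, Id1, Id2 and Id3 (brightest probe of each) as reported and under 14 other settings, with filled points for an adjusted p under 0.05. Bmp4 stays between -0.65 and -0.49 and loses its call in 3 of the 14, while the Id genes keep their sign and are not called in any.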

How the data were processed

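The authors used BeadStudio, of unstated version, per the submitters' processing notes. They deposited, per the file headers, the linear mean intensity of the beads of each probe, with the SD and number of beads (median 44), neither background-subtracted nor normalized as far as the values show. The detection score deposited by the authors, per the file headers, is a fraction from 0 to 1 that rises with signal, and 1 minus it was used as the detection p. The labels name a human array, while the gene names are those of mouse. A further deposited intensity table, quantile-normalized as judged from the values (median 71.1 in every column, range 30.5 to 44606.2), has row names that match no probe, so its rows were not named. Its linear scale leaves the direction clear, and how its background was treated is unknown.

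From the array files, background correction (normexp, offset 16), quantile normalization and the log2 transform were done with neqc in limma 3.58.1 (R 4.3.3). Values are mean differences, Dicer cKO minus control, with the standard error of the fit (lmFit, eBayes with intensity trend, 2-sided), over 22845 probes detected (p under 0.05) on at least 2 of 5 arrays. The offset compresses differences of dim probes, and 5 arrays limit the precision. Names were updated through RefSeq GRCm38.p6 (22864 probes by symbol, 11915 by a synonym of 1 gene). Lists took the brightest probe of a gene. Named were all 10 members with every probe, Dicer1 and Pgr, up to 4 called genes of each list by size or 2 by moderated t, and the 3 nearest profiles of each called member. The members and lists were chosen with earlier results of these data known. The test was tried on simulated data, but no outcome of that trial is given here. No batch is named in the labels or files.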

Additional observations from a re-analysis of the deposited data

How the results depend on the processing

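Bmp4 was lower in Dicer cKO pools under all 14 other settings and was called in 11. With no moderation of the variance, 0 member probes and 0 of the 50 further pathway genes were called (1 member probe at an unadjusted p under 0.05), and 1 of all 22845 probes was called. Dicer1 (brighter probe, at -0.43) and Pgr (at -0.77) were then not called either. Dicer1 was also not called with median scaling (-0.48) or without the intensity trend (-0.43). With a pool left out, the called member probes ran from 0 to 1 in limma (0 without Dicer cKO pool 10 or 12, with 2 and 1 at an unadjusted p under 0.05), the called pathway genes from 3 (Dicer cKO pool 10 left out) to 10 (control pool 11 left out, which added Bmpr1b, Gata2, Msx1 and Rgma), Dicer1 from -0.49 to -0.37 and Pgr from -0.89 to -0.66. Differences near 0 changed sign. With median scaling the brighter Bmpr1a probe stood at -0.025 and Tcf12 at -0.0054. With a pool left out, Bmp7 ran from -0.12 to 0.038 and from -0.33 to 0.25 (dimmer probe), Bmpr1a from -0.093 to 0.12, Bmpr2 from -0.18 to 0.041 and from -0.17 to 0.099 (dimmer probe), the dimmest Id2 probe from -0.011 to 0.18 and Tcf4 from -0.077 to 0.022. The cause of these shifts was not tested. No paired analysis was possible because the groups share no pool number. The deposited normalized table was not run as an alternative, since its rows could not be named. Dim probes (Bmp2, Nog, 3 of 4 Bmpr2 probes) limit what could be measured.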
